A study of Arabidopsis thaliana with 28 samples.

Results

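Transcripts of 49 nuclear genes of *Arabidopsis* that encode proteins of the thylakoid, the photosynthetic membrane of the chloroplast, are described here, out of 27371 genes in the tables. They were chosen by name and function: 6 LHCA antenna genes of photosystem I, 15 LHCB antenna genes of photosystem II, 12 PSA genes of photosystem I, 10 PSB genes of photosystem II, 4 genes of the electron carriers and 2 genes of the ATP synthase. All 49 matched a gene of the same name in the reference annotation.

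Photosynthesis starts in the thylakoid, a membrane system inside the chloroplast, where antenna proteins pass light energy to photosystem II and photosystem I. Photosystem II splits water, electrons then pass through the cytochrome b6f complex and plastocyanin to photosystem I and on to ferredoxin, and the proton gradient built on the way drives the ATP synthase. The reaction centre cores are encoded in the plastid, while the antenna proteins and many other subunits are encoded in the nucleus, made in the cytosol and imported. Such nuclear genes are among the most strongly expressed genes of green tissue and are known to respond to light, to the circadian clock and to plastid state.

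RNA came from whole 14-day-old *Arabidopsis* seedlings, grown in long days without sugar, in 2 experiments of the study on the transcription factor IDD4, a zinc finger protein of the INDETERMINATE DOMAIN family. The flg22 experiment held WT (ColO) and the *idd4* T-DNA line Salk_148352C, each untreated or treated for 1 h with 1 µM flg22, the flagellin peptide that triggers pattern immunity, with 3 samples per group in the labels. The expressor experiment held a WT (ColO) of its own and 3 lines in the same background that express IDD4 from the broadly active UBI10 promoter: *IDD4ox* carries a GFP fusion (IDD4:GFP in the labels, while the paper writes the tag on either side of IDD4), IDD4-AA carries an RFP fusion with Serine-73 and Threonine-130 replaced by alanine, and IDD4-DD carries an RFP fusion with both replaced by aspartic acid. The labels name no treatment for it and list 2 samples per group. The T-DNA line is a single insertion allele, and whether each expressor group is 1 line or several is not stated in the labels.

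The tables hold 1 FPKM value (mapped fragments per kilobase of transcript, relative to all fragments mapped in a library) per gene and group, which the authors had already combined over replicates. These tables therefore give no spread between replicates, no test was run on them, depth is unknown, and every difference below is a description of pooled values. A change is the difference of log2(FPKM + 1) between 2 groups of the same experiment. Only genes that reached 1 FPKM in one of the 2 groups entered a comparison, and members at least 1.2-fold different on that scale were counted beside the share of all such genes past the same fold. In whole seedlings, fewer green cells and less RNA per green cell cannot be told apart.

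IDD4 itself stood at 14.5 FPKM in untreated WT, 23.0 FPKM in the untreated *idd4*-labelled group, 5.69 FPKM in flg22-treated WT and 22.4 FPKM in the flg22-treated *idd4*-labelled group. Its value was thus higher in both groups labelled as mutant, and those groups are named by their label throughout. In the expressor experiment IDD4 stood at 9.23 FPKM in WT, 196.9 FPKM in *IDD4ox*, 71.6 FPKM in IDD4-AA and 198.2 FPKM in IDD4-DD. FPKM summed over nuclear genes was 1387554 in untreated WT and 980355 in the untreated *idd4*-labelled group, a log2 ratio of -0.50, and 1 row alone, AT2G01021, held 293542 and 247558 FPKM. Over genes of at least 5 FPKM the median log2 ratio of these groups was -0.07. Scaling by the sum or by the median can therefore give different directions for small changes. Shares of all genes below are for the values as deposited. A scaling factor shifts nearly all genes alike, so counts under another scaling have no matching share beside them. The log2 factors of the nuclear sum for the other comparisons lay between -0.20 and 0.39, and those of the median ratio between -0.11 and 0.06. In the expressor experiment AT2G01021 stood at 159328 FPKM in WT, 72108 in *IDD4ox*, 188518 in IDD4-AA and 335983 in IDD4-DD. Without the 10 highest genes the factors of the nuclear sum against WT were -0.02 for *IDD4ox* and -0.01 for IDD4-DD.

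The 49 genes were expressed in all groups, and none was listed at 0 or under 1 FPKM in any. Together they made up between 10.07% and 15.5% of the nuclear FPKM of a group in the flg22 experiment and between 11.7% and 15.1% in the expressor experiment. In untreated WT 38 of the 49 were among the 100 nuclear genes of highest FPKM, and 37 stood at 1000 FPKM or more. The PSII antenna alone held 50.3% of the members' summed FPKM in untreated WT, against 18.4% for photosystem I, 14.2% for photosystem II, 8.0% for the carriers, 6.78% for the PSI antenna and 2.33% for the ATP synthase.

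**Figure D1:**
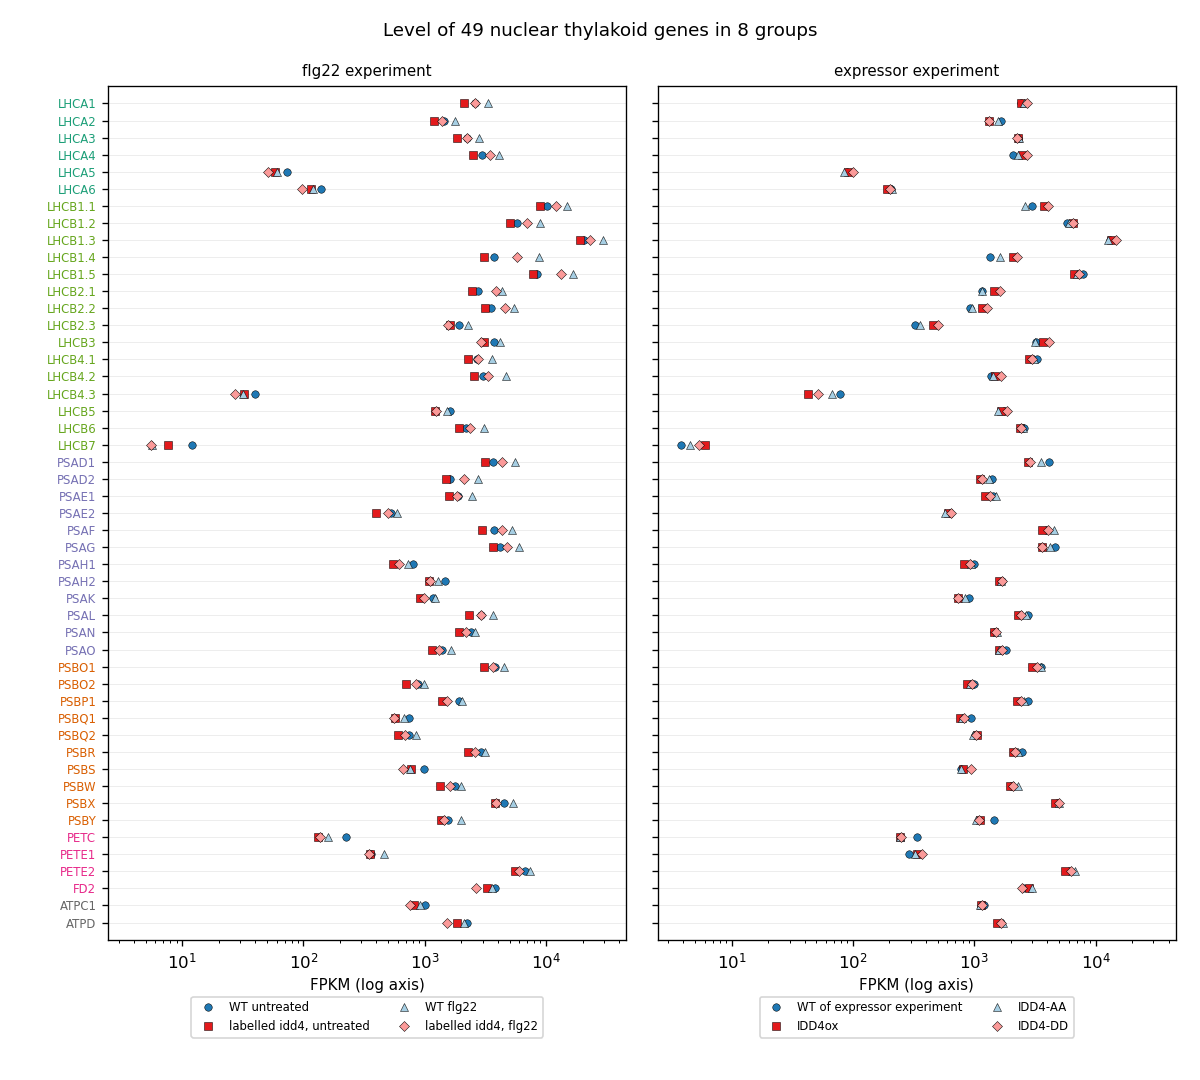
Each row is 1 of the 49 genes, named in the colour of its role (PSI antenna, PSII antenna, photosystem I, photosystem II, carriers, ATP synthase, from top to bottom), and each point is the FPKM of 1 group on a log axis, with the flg22 experiment on the left and the expressor experiment on the right. Most genes lie near or above 1000 FPKM in every group, while LHCB7, between 3.83 and 12.1 FPKM, and LHCB4.3, between 27.2 and 78.4 FPKM, lie far to the left.

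LHCB1.3 (AT1G29930), a gene for the major trimeric antenna protein of photosystem II, was the highest member in every group. It stood at 20559 FPKM in untreated WT, 19131 FPKM in the untreated *idd4*-labelled group, 29434 FPKM in flg22-treated WT and 23249 FPKM in the flg22-treated *idd4*-labelled group, and between 12770 and 14850 FPKM in the 4 expressor groups. LHCA4 (AT3G47470), a subunit of the antenna belt of photosystem I, was the highest of the PSI antenna in untreated WT with 2980 FPKM, and its values in the untreated *idd4*-labelled group, flg22-treated WT and the flg22-treated *idd4*-labelled group were 2484, 4089 and 3432 FPKM. PSAG (AT1G55670), which binds the antenna belt to photosystem I, led the PSA genes with 4207, 3639, 6023 and 4772 FPKM in the same order of groups. In the expressor experiment PSAG stood at 4647 FPKM in WT, 3595 in *IDD4ox*, 4219 in IDD4-AA and 3587 in IDD4-DD, so that both *IDD4ox* and IDD4-DD were lower than the other groups.

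PSBX (AT2G06520), a small membrane subunit, led the PSB genes with 4523 FPKM in untreated WT, 3769 in the untreated *idd4*-labelled group, 5306 in flg22-treated WT and 3847 in the flg22-treated *idd4*-labelled group. PETE2 (AT1G20340), the main plastocyanin gene, led the carriers with 6772, 5594, 7424 and 6027 FPKM in that order. ATPD (AT4G09650), the delta subunit of the ATP synthase, was higher than the gamma subunit ATPC1 (AT4G04640) in every group, with 2248, 1856, 2089 and 1535 FPKM against 1001, 815, 917 and 762 FPKM. At the other end stood LHCB7 (AT1G76570), a rare antenna protein of photosystem II, and LHCB4.3 (AT2G40100), an isoform of the minor antenna protein CP29. LHCA5 (AT1G45474) and LHCA6 (AT1G19150), which join photosystem I to the chloroplast NADH dehydrogenase-like complex, also stood far below the other LHCA genes, between 51.0 and 100.9 FPKM and between 96.6 and 209.5 FPKM.

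Many of these proteins are encoded by pairs of genes, and in 7 of 8 pairs examined the same partner was the higher one in every group of an experiment. The exception was PSBQ1 (AT4G21280) and PSBQ2 (AT4G05180), of the oxygen-evolving complex, with a ratio between 0.80 and 1.01 in the flg22 experiment. PSBO1 (AT5G66570), the main form of the manganese-stabilising protein of water splitting, was between 4.31 and 4.57 times PSBO2 (AT3G50820) in the flg22 experiment and between 3.39 and 3.87 times in the expressor experiment. PETE2 was between 15.7 and 18.6 times PETE1 (AT1G76100) in the flg22 experiment, and PSAH2 (AT1G52230) between 1.78 and 1.99 times PSAH1 (AT3G16140). The CP29 genes LHCB4.1 (AT5G01530) and LHCB4.2 (AT3G08940) differed in order between the experiments, with a ratio between 0.78 and 0.89 in the flg22 experiment and between 1.82 and 2.41 in the expressor experiment. Levels of the other members are not compared between the experiments, in which clock genes also stood apart. CCA1 and LHY, which are known to act on LHCB genes, were at 166.4 and 103.3 FPKM in untreated WT and at 0.70 and 0.37 FPKM in the expressor experiment's WT.

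The LHCB1 proteins are nearly identical, and LHCB1.1 (AT1G29920) and LHCB1.2 (AT1G29910) encode the same protein. Reads that fit more than 1 gene can blur the values of such copies. In the reference transcripts 42 of the 49 members shared no stretch of 101 bases with another member, and LHCB1.1 to LHCB1.5 (AT2G34420), LHCB2.1 (AT2G05100) and LHCB2.2 (AT2G05070) shared between 1.42% and 7.24% of their stretches of that length. How reads in those stretches were divided between copies is not stated, so the values of these 7 genes carry that uncertainty.

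The 250 bases before the annotated start of transcription are shown for 4 members whose values stood furthest apart in a comparison: LHCB1.4 (highest change after flg22 and in the expressor lines), LHCB1.1 (highest change between IDD4-DD and IDD4-AA), PETC (lowest change in the untreated *idd4*-labelled group) and LHCB4.3 (lowest change in *IDD4ox*). The sequences come from RefSeq, build TAIR10.1, and are written 5′ to 3′ on the strand of the gene, ending at the base before the start. Capitals mark matches, on either strand, to 6 short sequences: AGACAA, the core bound by the maize INDETERMINATE1 protein, the G-box CACGTG, the I-box GATAAG of light-regulated genes, CCAATC, which is known from promoters bound by GLK factors, the CCA1 binding site AAAAATCT and the evening element AAAATATCT. The paper ranks AGACAA first among the sites of IDD4 in its own chromatin immunoprecipitation, searched over longer upstream regions than these windows.
LHCB1.4, chr2:14524357-14524606, plus strand: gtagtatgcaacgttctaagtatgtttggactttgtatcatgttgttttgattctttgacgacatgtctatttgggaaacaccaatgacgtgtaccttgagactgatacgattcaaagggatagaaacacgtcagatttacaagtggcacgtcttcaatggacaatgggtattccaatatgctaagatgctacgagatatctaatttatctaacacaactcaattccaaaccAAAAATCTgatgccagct
LHCB1.1, chr1:10475970-10476219, minus strand: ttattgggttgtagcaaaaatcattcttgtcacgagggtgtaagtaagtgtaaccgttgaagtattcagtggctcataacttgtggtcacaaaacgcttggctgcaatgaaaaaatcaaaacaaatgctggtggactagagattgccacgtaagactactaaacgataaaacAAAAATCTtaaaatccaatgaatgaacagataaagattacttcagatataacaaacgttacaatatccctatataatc
PETC, chr4:1439896-1440145, plus strand: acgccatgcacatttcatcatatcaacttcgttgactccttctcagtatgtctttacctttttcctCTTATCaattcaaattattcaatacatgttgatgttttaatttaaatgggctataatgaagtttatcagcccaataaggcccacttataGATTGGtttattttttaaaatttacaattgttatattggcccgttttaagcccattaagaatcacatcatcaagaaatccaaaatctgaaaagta
LHCB4.3, chr2:16745378-16745627, plus strand: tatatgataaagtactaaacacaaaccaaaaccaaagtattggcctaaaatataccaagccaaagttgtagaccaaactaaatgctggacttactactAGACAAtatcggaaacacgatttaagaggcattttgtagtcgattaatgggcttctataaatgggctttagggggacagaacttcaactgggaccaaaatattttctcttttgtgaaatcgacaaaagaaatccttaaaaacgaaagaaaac

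LHCB1.4 (AT2G34430) and LHCB1.1 each held 1 match to the CCA1 site, PETC (AT4G03280) 1 to the I-box and 1 to CCAATC, and LHCB4.3 1 to AGACAA. Over all 49 members, AGACAA was in 7 windows (14.3%), against 19.5% of 26693 windows of the same length before all genes. CCAATC was in 14 (28.6% against 10.2%), and 10 of these 14 were antenna genes while none of the 12 photosystem I genes had it. The G-box was in 10 (20.4% against 6.58%), the I-box in 11 (22.4% against 12.2%), the CCA1 site in 5 (10.2% against 6.74%) and the evening element in 2 (4.08% against 2.39%). None of the 6 sequences contains another. A match describes the letters of a window and not a bound site.

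The first question was how the thylakoid genes stood in the *idd4* line without treatment. All 49 had a lower FPKM in the untreated *idd4*-labelled group than in untreated WT as the values were deposited, and this direction does not hold under scaling to the nuclear sum, where 46 of 49 were higher. The background as deposited was 60.8% of 18349 genes lower by any amount, or 74.7% of 961 genes that reached 100 FPKM in either group. The factor of the nuclear sum raises other genes too, and the share of all genes under it was not computed. The count of 46 therefore does not set the members apart from other genes. The median change of the members was -0.29, against -0.05 for all genes. A total of 29 members were at least 1.2-fold lower, where 16.4% of all genes were, and 0 were at least 1.2-fold higher, where 8.39% of all genes were. Among genes that reached 100 FPKM in either group 27.7% were at least 1.2-fold lower, with a median of -0.15. Only PETC and LHCB7 were at least 1.5-fold lower, where 2.02% of all genes were.

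PETC, the Rieske iron-sulfur protein of the cytochrome b6f complex, stood at 223 FPKM in untreated WT against 133 FPKM in the untreated *idd4*-labelled group, a change of -0.74, the largest of the 49. LHCB7 stood at 12.1 and 7.67 FPKM, a change of -0.60. PSAH1, which with PSAL (AT4G12800) and PSAO (AT1G08380) forms the side of photosystem I where the mobile antenna docks, stood at 793 and 545 FPKM, a change of -0.54. Its near copy PSAH2 was also among the lower members, with 1463 and 1083 FPKM and a change of -0.43. At the other end of the range PETE1, the minor plastocyanin gene, stood at 363 and 356 FPKM, a change of -0.03. Next to it were LHCB1.3 at 20559 and 19131 FPKM (-0.10) and the photosystem I gene PSAD2 at 1624 and 1508 FPKM (-0.11).

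Medians by role lay close together in this comparison. The median change was -0.34 in photosystem II, -0.32 in photosystem I, -0.29 in the ATP synthase, -0.28 in the PSI antenna, -0.25 in the carriers and -0.24 in the PSII antenna. The 8 genes of the trimeric antenna proteins LHCB1 and LHCB2 had changes between -0.26 and -0.10 with a median of -0.18, and none of them was 1.2-fold lower. The genes of the oxygen-evolving proteins lay lower, from -0.45 for PSBP1 (AT1G06680, 1911 and 1399 FPKM) to -0.29 for PSBO1 (3797 and 3108 FPKM) and PSBQ2 (736 and 601 FPKM). The monomeric antenna proteins, which link the trimers to the photosystem II core, differed among themselves: LHCB5 (AT4G10340, CP26) stood at 1601 and 1215 FPKM (-0.40), while LHCB6 (AT1G15820, CP24) stood at 2203 and 1920 FPKM (-0.20). PSBW (AT2G30570), which stabilises the complex of photosystem II with its antenna, stood at 1786 and 1345 FPKM (-0.41), and PSBR (AT1G79040), which helps to bind the oxygen-evolving proteins, at 2916 and 2292 FPKM (-0.35). In the stromal ridge of photosystem I, PSAE2 (AT2G20260) stood at 526 and 400 FPKM (-0.39) and its copy PSAE1 (AT4G28750) at 1894 and 1582 FPKM (-0.26). Differences between members do not depend on the scaling of the 2 groups, since a factor shifts all 49 almost equally. Under scaling by the median of ratios or by the 75th percentile 48 of 49 members were lower, with 15 and 16 of them at least 1.2-fold lower, and under the nuclear sum without the 10 highest genes 33 of 49 were higher.

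After flg22, all 49 again had a lower FPKM in the *idd4*-labelled group than in WT, and here all 4 scalings left 49 of 49 lower. The background was 39.6% of 17926 genes lower by any amount. The median change of the members was -0.32, against 0.06 for all genes. A total of 35 members were at least 1.2-fold lower, where 9.99% of all genes were, and 0 were at least 1.2-fold higher, where 19.2% of all genes were. Among genes that reached 100 FPKM in either group 12.7% were at least 1.2-fold lower.

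LHCB1.4, another LHCB1 gene, had the largest difference, with 8729 FPKM in flg22-treated WT and 5797 FPKM in the flg22-treated *idd4*-labelled group, a change of -0.59, and it was the only member at least 1.5-fold lower, where 1.72% of all genes were. LHCB2.3 (AT3G27690) followed with 2259 and 1554 FPKM, a change of -0.54. LHCB3 (AT5G54270), the third protein of the trimeric antenna, stood at 4148 and 2898 FPKM, a change of -0.52. LHCB4.2 came next, with 4660 and 3316 FPKM and a change of -0.49. The smallest differences were those of LHCB7, at 5.596 and 5.561 FPKM (-0.01), of LHCB2.1, at 4323 and 3899 FPKM (-0.15), and of PSBS (AT1G44575), the sensor of photoprotective energy dissipation, at 757 and 658 FPKM (-0.20).

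The median change after flg22 was -0.36 in the ATP synthase, -0.35 in the carriers, -0.34 in the PSII antenna, -0.32 in the PSI antenna, -0.31 in photosystem I and -0.30 in photosystem II. The 3 members with the lowest change without treatment were not among the 3 lowest after flg22, which says little, since 3 of 49 genes seldom overlap with another 3. Across the 49 genes Pearson's r between both changes was -0.45 and Spearman's rho was -0.52, a description over genes that are not independent and that share 2 group scalings within each comparison. PETC, lowest without treatment, had a change of -0.23 after flg22 (159 and 136 FPKM), while LHCB1.4 had -0.26 without treatment (3723 and 3107 FPKM).

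**Figure D2:**
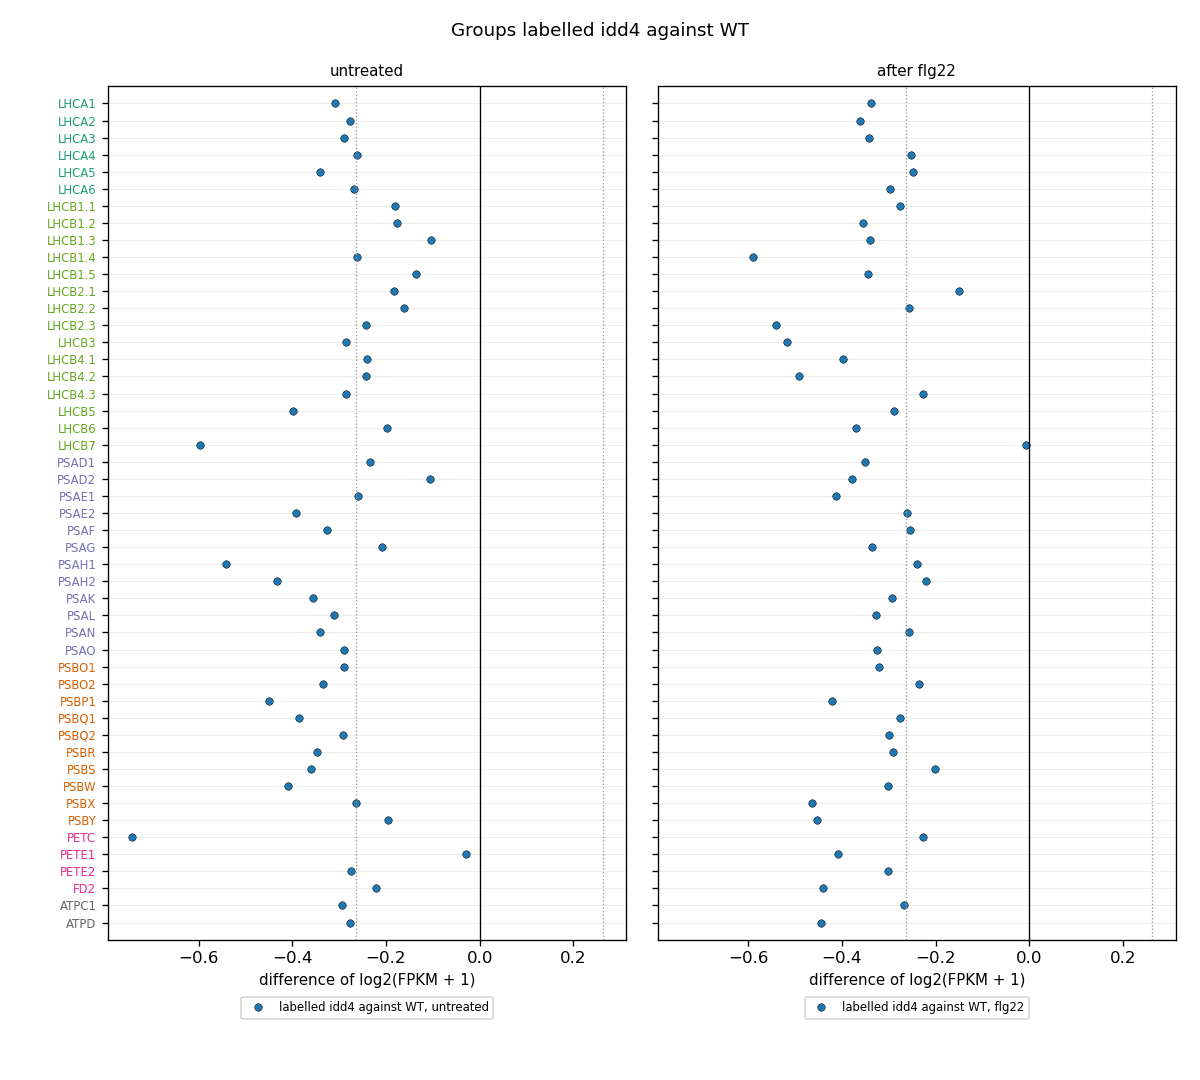
The x axis is the difference of log2(FPKM + 1) between the group labelled idd4 and WT, untreated on the left and after flg22 on the right, with 1 point per gene, a solid line at no difference and dotted lines at 1.2-fold. All points lie left of the solid line in both panels as deposited (46 of 49 would lie right of it in the left panel after scaling to the nuclear sum), PETC at -0.74 is the leftmost without treatment, and LHCB1.4 at -0.59 is the leftmost after flg22.

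Markers of roots, which whole seedlings hold beside green tissue, were read beside these results. None of the 12 root markers was listed at 0, and PLT1, a factor of the root stem cell niche, stayed under 1 FPKM in all 8 groups. Their summed FPKM was 455 in untreated WT and 411 in the untreated *idd4*-labelled group, 346 and 306 after flg22, and between 560 and 853 in the expressor experiment, with WT the highest. In both *idd4* comparisons 8 of the 11 root markers compared were lower as deposited, where 60.8% of all genes were without treatment and 39.6% after flg22. Under scaling to the nuclear sum 1 of the 11 was lower without treatment and 9 after flg22, and their part in the values of the thylakoid genes was not tested.

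The next question was how the thylakoid genes stood 1 h after flg22. In WT 36 of the 49 had a higher FPKM after flg22 and 13 a lower one, where 39.1% and 60.9% of all genes were, and the number higher was between 28 and 42 under the other scalings. The median change of the members was 0.23, while that of all genes was -0.16. Genes that reached 100 FPKM in either group had a median of 0.14, and 54.3% of them were higher. A total of 22 members were at least 1.2-fold higher, where 26.4% of all 18540 genes compared were, and 5 were at least 1.2-fold lower, where 42.8% of all genes were. Past 1.5-fold there were 8 higher members (17.1% of all genes) and 1 lower member (22.2% of all genes). Among genes that reached 100 FPKM in either group the shares at least 1.2-fold higher and lower were 45.7% and 33.0%. The shares past 1.5-fold were 38.9% and 19.0%.

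The genes at both ends belonged to the PSII antenna. LHCB1.4 stood at 3723 FPKM in untreated WT and 8729 FPKM after flg22, a change of 1.23. LHCB1.5 stood at 8501 and 16726 FPKM, a change of 0.98. PSAD2 (AT1G03130), a subunit of the ferredoxin docking site of photosystem I, stood at 1624 and 2763 FPKM, a change of 0.77. The 8 LHCB1 and LHCB2 genes were all higher, with changes from 0.23 for LHCB2.3 (1928 and 2259 FPKM) to 1.23 and a median of 0.62, and all stayed higher under each of the scalings tried, whose largest log2 factor here was 0.18.

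LHCB7 was lowest, with 12.1 FPKM untreated and 5.596 FPKM after flg22, a change of -0.99. PETC stood at 223 and 159 FPKM (-0.49), and PSBS at 989 and 757 FPKM (-0.39). LHCB4.3 (39.5 and 32.0 FPKM), LHCA5 (73.8 and 60.8 FPKM) and LHCA6 (139 and 119 FPKM), 3 antenna genes of low level, had changes of -0.30, -0.27 and -0.23. The major LHCA genes stood close together, with LHCA1 (AT3G54890) at 2595 and 3300 FPKM (0.35), LHCA2 (AT3G61470) at 1432 and 1778 FPKM (0.31) and LHCA3 (AT1G61520) at 2247 and 2807 FPKM (0.32). LHCB6 was higher, at 2203 and 3076.6 FPKM (0.48), while LHCB5 stood at 1601 and 1512 FPKM (-0.08). The medians by role ran from 0.52 in the PSII antenna, 0.32 in the PSI antenna and 0.29 in photosystem I to 0.17 in photosystem II, 0.03 in the carriers and -0.12 in the ATP synthase.

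In the *idd4*-labelled groups the median change after flg22 was 0.21 as deposited, but it turned negative under 3 of 4 scalings, so no direction is drawn for the 49 genes as a set. As deposited 37 were higher and 12 lower, where 45.7% and 54.3% of all genes were. A total of 20 were at least 1.2-fold higher, where 31.3% of all 18558 genes compared were, and 3 were at least 1.2-fold lower, where 36.6% were. Among genes that reached 100 FPKM in either group 52.5% and 25.7% were past these folds and the median was 0.32. LHCB1.4 was again highest, with 3107 and 5797 FPKM and a change of 0.90. It was followed by LHCB1.5 with 7741 and 13169 FPKM (0.77) and by LHCB2.1 with 2440 and 3899 FPKM (0.68), and the largest scaling factor, 0.49, leaves these 3 above 0. LHCB7 (7.67 and 5.56 FPKM, -0.40), FD2 (AT1G60950), the main ferredoxin of leaves (3270 and 2669 FPKM, -0.29), and ATPD (1856 and 1535 FPKM, -0.27) were lowest.

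The order of the genes was alike in both genotypes. Pearson's r between the flg22 change in WT and that in the *idd4*-labelled groups, which share no samples, was 0.88 across the 49 genes, and Spearman's rho was 0.87. As deposited 33 genes were higher and 9 lower in both genotypes, and 7 differed in sign. The flg22 change also went with the level of the gene in the expressor experiment's WT, which neither change uses, with r = 0.64 and rho = 0.48 in WT and r = 0.54 and rho = 0.42 in the *idd4*-labelled groups, so that members of higher level tended to have the higher change. These correlations are descriptions across genes that share the same groups.

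Set side by side, the flg22 changes of LHCB7 (-0.99 in WT and -0.40 in the *idd4*-labelled groups) and of PETC (-0.49 and 0.03) stood furthest apart in one direction, with differences of 0.59 and 0.52. PETE1 (0.35 and -0.03), LHCB1.4 (1.23 and 0.90) and LHCB2.3 (0.23 and -0.07) stood furthest apart in the other, with differences of -0.38, -0.33 and -0.30. The median difference over the 49 genes was -0.03, and 29 of them had the more negative change in the *idd4*-labelled groups, where 34.6% of 18964 genes did. This difference moves with the scaling: its median was -0.13 (39 genes more negative) under the median of ratios, -0.15 (43 genes) under the 75th percentile, -0.34 (47 genes) under the nuclear sum without the 10 highest genes and -0.60 (48 genes) under the nuclear sum. The share of 34.6% holds as deposited only. Such factors shift this difference for nearly all genes, so that share is no background for the rescaled counts. Whether the genotypes differed in their response was not tested, for want of replicates.

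**Figure D3:**
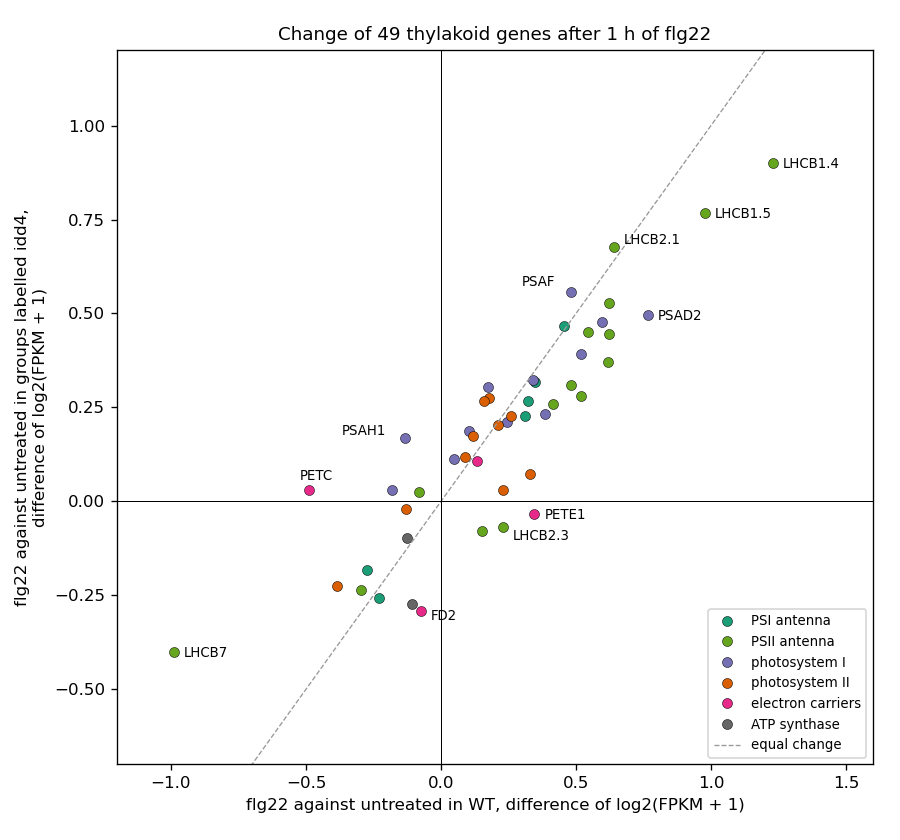
Each point is 1 of the 49 genes, coloured by role, with its flg22 change in WT on the x axis and in the groups labelled idd4 on the y axis, both as differences of log2(FPKM + 1). LHCB1.4 and LHCB1.5 lie at the upper right and LHCB7 at the lower left, most points lie near the dashed line of equal change (r = 0.88), and the log2 factors of the nuclear sum, -0.18 in WT and 0.39 in the groups labelled idd4, would move all points right and down and most of them below 0 on the y axis.

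In the expressor experiment the 49 genes were compared between each line and the WT sequenced with it. The 3 comparisons share that WT, so a low or high WT value enters all of them. In *IDD4ox* 17 members were higher than WT and 32 lower as deposited, where 61.9% and 38.1% of all genes were. Scaling to the nuclear sum turned this to 31 higher. The number higher was 12 under the median of ratios, 15 under the 75th percentile and 18 under the nuclear sum without the 10 highest genes. The median change was -0.09, against 0.07 for all genes. A total of 6 were at least 1.2-fold higher, where 20.6% of all 19016 genes compared were, and 13 were at least 1.2-fold lower, where 10.4% were. Among genes that reached 100 FPKM in either group 15.4% and 19.2% were past these folds. Of those genes 51.1% were lower by any amount, with a median of -0.007.

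The members split by role in *IDD4ox*. All 12 photosystem I genes were lower than WT, with a median of -0.25 and PSAN (AT5G64040) as the nearest to no change (1446 and 1445 FPKM), and 8 of the 10 photosystem II genes were lower, with a median of -0.21. Of the 8 LHCB1 and LHCB2 genes 7 were higher (6 or 7 under the other scalings), with a median of 0.31. Scaled to the nuclear sum, 8 of the 12 photosystem I genes and 5 of the 10 photosystem II genes would be lower. Under the other scalings 11 or 12 photosystem I genes and 8 or 10 photosystem II genes would be lower. The distance between the roles does not depend on the scaling. LHCB1.4 stood at 1355 FPKM in WT and 2094 in *IDD4ox*, a change of 0.63, and LHCB2.3 at 324 and 454 FPKM, a change of 0.48. LHCB7 was also higher, at 3.83 and 6.06 FPKM (0.55). The clock gene CCA1 stood at 0.70 FPKM in WT, 2.90 in *IDD4ox*, 0.84 in IDD4-AA and 2.08 in IDD4-DD. CCA1 was thus higher in the same 2 lines as most LHCB1 and LHCB2 genes, but at a low level, at most 2.90 FPKM in any of these groups. The clock gene LHY was not, at 0.37, 0.31, 0.26 and 0.35 FPKM in that order, under 1 FPKM in each group. The part of either clock gene in the LHCB values was not tested. LHCB4.3 stood at 78.4 and 42.6 FPKM (-0.87), PSAD1 (AT4G02770) at 4112 and 2771 FPKM (-0.57) and PETC at 336 and 242 FPKM (-0.47).

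In IDD4-AA the members stood close to WT, with a median change of -0.03 against 0.03 for all genes. None was at least 1.2-fold higher, where 13.5% of all 18859 genes compared were, and 2 were at least 1.2-fold lower, where 11.5% were. Those 2 were PSBY (AT1G67740), a small subunit of photosystem II, at 1448 and 1033 FPKM (-0.49), and PETC at 336 and 245 FPKM (-0.45). PSBQ1 came next, at 937 and 787 FPKM (-0.25). The highest members were LHCB1.4 at 1355 and 1618 FPKM (0.26), FD2 at 2540 and 3017 FPKM (0.25) and PSAF (AT1G31330), a subunit that docks plastocyanin, at 3894 and 4530 FPKM (0.22). PSBY and PETC were the only members at least 1.2-fold lower than WT in all 3 lines, with changes for PSBY of -0.39 in *IDD4ox* (1105 FPKM) and -0.40 in IDD4-DD (1094 FPKM). Other members, such as LHCA2 and PSAG, were also lower in all 3 lines, but by less in IDD4-AA.

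The PSI antenna did not move as one in *IDD4ox* and IDD4-DD. LHCA2 stood at 1664 FPKM in WT, 1321 in *IDD4ox*, 1577 in IDD4-AA and 1327 in IDD4-DD, so that *IDD4ox* and IDD4-DD were the lower groups. LHCA4 stood at 2094, 2463, 2278 and 2733 FPKM in the same order, with WT the lowest. LHCA1 and LHCA3 differed from WT by at most 0.16 in any line. PSAK (AT1G30380), which like PSAG holds antenna proteins, stood at 903, 727, 836 and 732 FPKM and was likewise lower in *IDD4ox* and IDD4-DD than in the other groups.

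In IDD4-DD 23 members were higher than WT and 26 lower, where 54.7% and 45.3% of all genes were. Their median change of -0.02 went to -0.29 under scaling to the nuclear sum and stayed between -0.04 and -0.01 under the other scalings. A total of 10 were at least 1.2-fold higher, where 15.8% of all 18955 genes compared were, and 8 were at least 1.2-fold lower, where 12.5% were. LHCB1.4 was highest, at 1355 FPKM in WT and 2234 in IDD4-DD (0.72). It was followed by LHCB2.3 at 324 and 504 FPKM (0.63) and LHCB2.1 at 1162 and 1643 FPKM (0.50). LHCB2.2 at 928 and 1280 FPKM (0.46), LHCB1.1 at 2968 and 4065 FPKM (0.45) and LHCA4 at 2094 and 2733 FPKM (0.38) were also higher. At the low end stood LHCB4.3 at 78.4 and 51.8 FPKM (-0.59), PSAD1 at 4112 and 2899 FPKM (-0.50) and PETC at 336 and 249 FPKM (-0.43). The LHCB1 and LHCB2 genes stood above WT in 7 of 8 cases (median 0.46), and in 5 of 8 under scaling to the nuclear sum. Photosystem I had a median of -0.11, with 9 of its 12 genes lower, and photosystem II a median of -0.09, with 6 of its 10 genes lower. Under the nuclear sum 12 of 12 and 9 of 10 were lower.

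**Figure D4:**
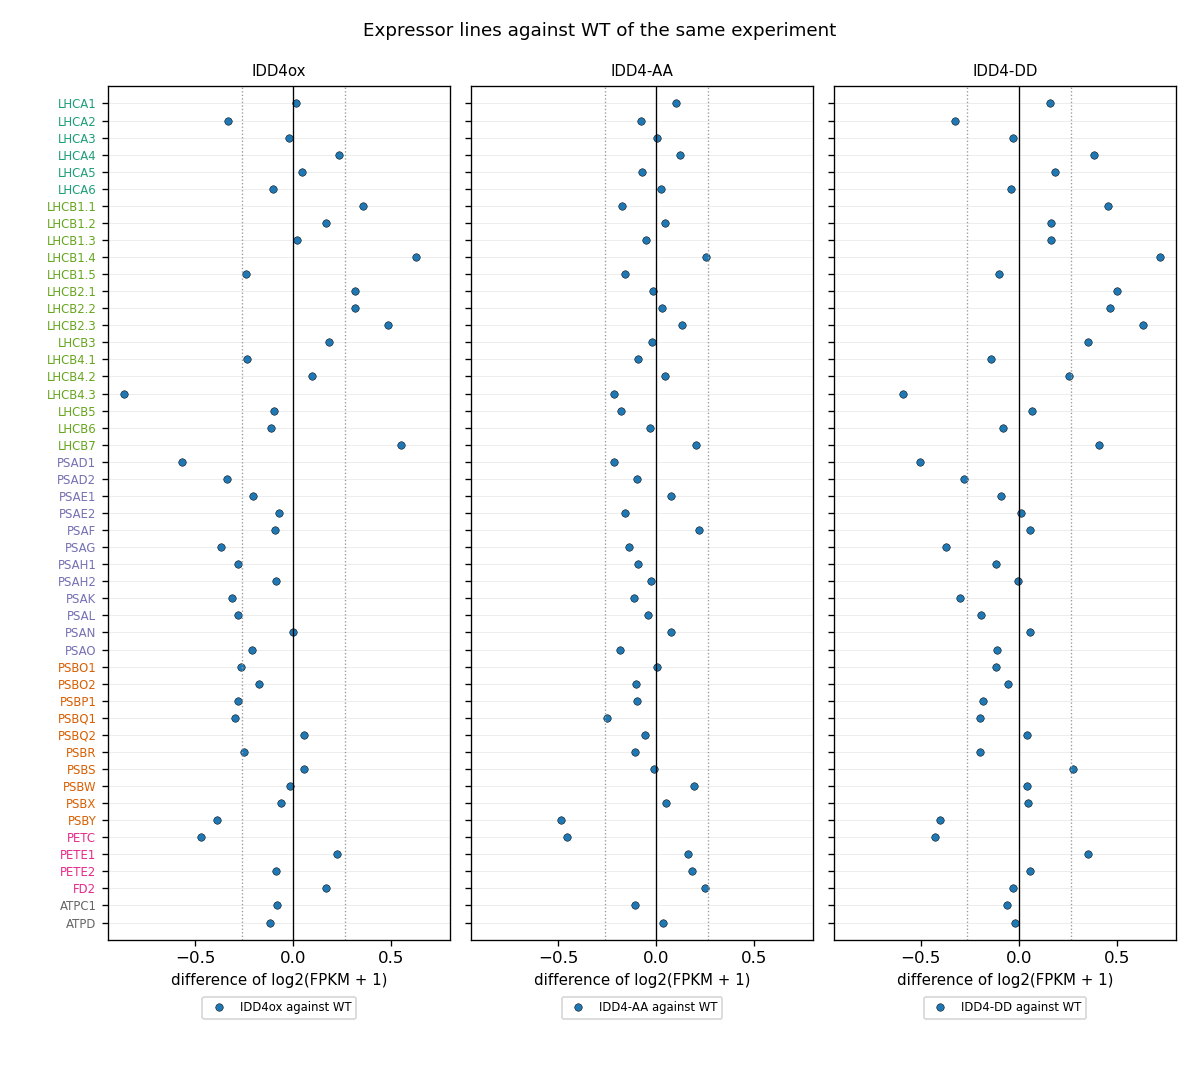
The x axis is the difference of log2(FPKM + 1) between IDD4ox, IDD4-AA or IDD4-DD and the WT of the same experiment, with 1 point per gene, a solid line at no difference and dotted lines at 1.2-fold. As deposited, LHCB1.4 lies furthest right in each panel (0.63, 0.26 and 0.72), LHCB4.3 lies furthest left in IDD4ox (-0.87) and IDD4-DD (-0.59), and the points of IDD4-AA lie closest to the solid line (the log2 factors of the nuclear sum, -0.20 for IDD4ox and 0.27 for IDD4-DD, would move their points right and left).

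The phospho-site versions were then compared with each other, which does not use the WT. IDD4-DD differed from IDD4-AA by a median of 0.03 over the 49 genes, a value too near 0 to give a direction, since it was -0.01 without the 5 LHCB1 genes and -0.21 under the nuclear sum. A total of 7 members were at least 1.2-fold higher in IDD4-DD, where 13.0% of all 18956 genes compared were, and 3 were at least 1.2-fold lower, where 11.5% were. The LHCB1 and LHCB2 genes stood above IDD4-AA in 8 of 8 cases as deposited (median 0.45), where 48.8% of all genes did. The factor of the nuclear sum, 0.23, leaves 5 of the 8 higher. LHCB1.1 stood at 2628 FPKM in IDD4-AA and 4065 in IDD4-DD (0.63), LHCB2.1 at 1149 and 1643 (0.52) and LHCB2.3 at 355 and 504 (0.50). LHCB4.3 stood at 67.4 and 51.8 FPKM (-0.37), PSAD1 at 3540 and 2899 (-0.29) and FD2 at 3017 and 2482 (-0.28). IDD4 itself stood higher in IDD4-DD than in IDD4-AA, so the level of the transgene and its form cannot be told apart.

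Ratios between members within a group need no scaling between groups. Summed LHCB1 and LHCB2 FPKM was 2.87 times summed photosystem II FPKM in untreated WT, 3.22 times in the untreated *idd4*-labelled group, 4.06 times in flg22-treated WT and 4.098 times in the flg22-treated *idd4*-labelled group. In the expressor experiment it was 1.62 times in WT, 1.92 times in *IDD4ox*, 1.61 times in IDD4-AA and 1.95 times in IDD4-DD. Both flg22-treated groups were thus above both untreated groups, and *IDD4ox* and IDD4-DD above WT and IDD4-AA. Summed photosystem I over photosystem II was 1.298, 1.327, 1.51 and 1.55 in the flg22 experiment in the order given above and 1.24, 1.16, 1.233 and 1.145 in the expressor experiment.

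**Figure D5:**
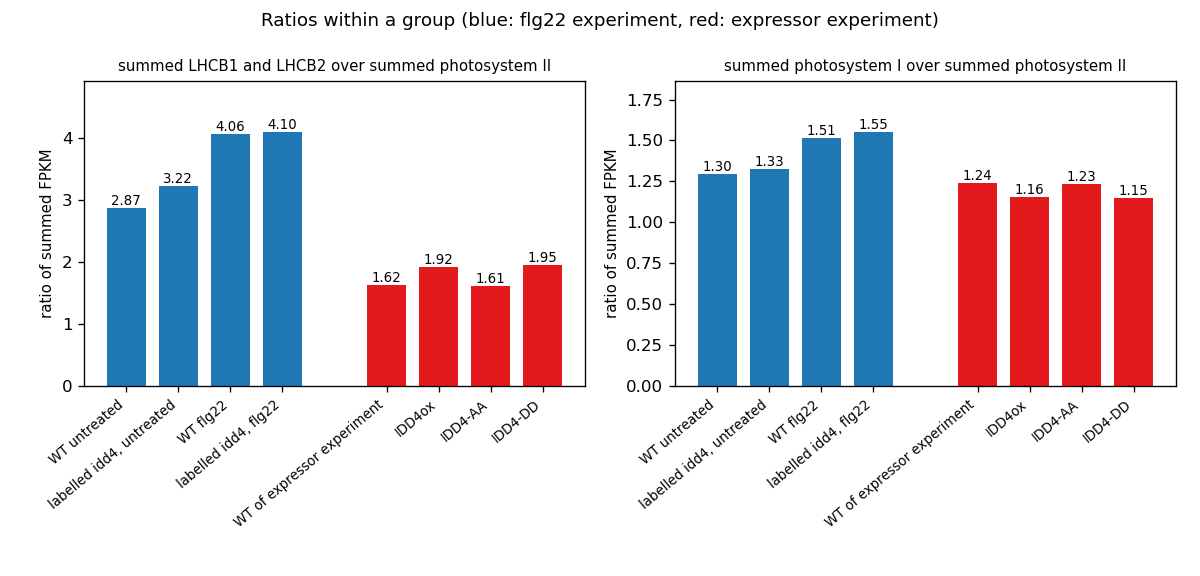
Bars are ratios of summed FPKM within 1 group, from 0, for LHCB1 and LHCB2 over photosystem II on the left and photosystem I over photosystem II on the right, with 1 pooled value per group and no error. The left ratio is near 4.1 in both flg22-treated groups against 2.87 and 3.22 in the untreated ones, and 1.92 and 1.95 in IDD4ox and IDD4-DD against 1.62 and 1.61 in WT and IDD4-AA.

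Other nuclear genes of the thylakoid, a list of 31 with ferredoxin-NADP reductases, kinases, assembly factors and further subunits, were read in the same way. In the untreated *idd4*-labelled group 28 of 31 were lower as deposited, 20 at least 1.2-fold, with a median of -0.29, where 60.8% and 16.4% of all genes were, and under scaling to the nuclear sum 4 of 31 were lower. After flg22 28 of 31 were lower in the *idd4*-labelled groups than in WT, 9 at least 1.2-fold, with a median of -0.21, where 39.6% and 9.99% of all genes were. In WT 24 of 31 were lower after flg22 and 15 were at least 1.2-fold lower, with a median of -0.22, where that of the 49 members was 0.23. Of all genes 60.9% and 42.8% were lower and at least 1.2-fold lower, so the latter count of this list was near the background.

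A list of 13 plastid-encoded genes, those of thylakoid subunits and rbcL of Rubisco, was read in libraries that were made from mRNA. As deposited 12 of the 13 were higher in the untreated *idd4*-labelled group than in WT, with a median of 0.40, where 39.2% of all genes were, and 10 were lower in the *idd4*-labelled groups after flg22, with a median of -0.09, where 39.6% were. In IDD4-DD 12 of 13 were at least 1.2-fold higher than in WT, with a median of 1.64, where 15.8% of all genes were. In IDD4-AA all 13 were lower, with a median of -0.40, where 45.0% of all genes were. The photosystem II core gene psbA stood at 122, 161, 174 and 163 FPKM in untreated WT, the untreated *idd4*-labelled group, flg22-treated WT and the flg22-treated *idd4*-labelled group. In the expressor experiment psbA stood at 64.4 FPKM in WT, 77.0 in *IDD4ox*, 43.6 in IDD4-AA and 279.6 in IDD4-DD. Their part in the values of the nuclear genes was not tested.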

How the data were processed

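Per the paper's methods and the submitters' processing notes, the authors trimmed paired-end reads with Trimmomatic, aligned them to TAIR10 with TopHat and estimated FPKM with Cufflinks. The deposited FPKM tables hold 1 value per gene and group, pooled over replicates. The labels list 3 samples per group in the flg22 experiment and 2 in the expressor experiment, for which the paper states 3 replicates. The study's own fold changes and p-values were not used, and samples of chromatin immunoprecipitation were not used here.

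Of 27371 gene identifiers, 21642 stood away from their alphabetical place. Sorted identifiers gave equal values (relative tolerance 0.001) for 1997 of 1997 genes of a supplementary table of the study, and the order as given for 499. Sorted identifiers were used. That table holds 21 of the 49 members, and 48 of the 49 members were away from their place as given, so the values printed rest on this sorting.

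Changes were differences of log2(FPKM + 1) over genes of at least 1 FPKM in either group, computed with pandas 2.3.3 and numpy 2.4.6, and the counting was tested on simulated data. Upstream sequences and names were read from RefSeq TAIR10.1, while the tables give no coordinates. The 49 members, the lists and the fold of 1.2 were chosen with earlier results of these data known. All members may be named. Given with their values were the highest member of each role in untreated WT, the 3 highest and 3 lowest changes per comparison where a gene reached 5 FPKM in either group, and up to 4 genes of the other lists per comparison. Other genes named were chosen after their values were seen. Alternatives were a pseudocount of 0.1, a minimum of 5 FPKM, leaving out members at least 95% identical to another, and 4 scalings between groups, of which the nuclear sum without the 10 highest genes and the 75th percentile were added after seeing the data.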

Additional observations from a re-analysis of the deposited data

How the results depend on the processing

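Values are pooled, so no replicate could be left out and nothing was tested. No paired analysis was possible because the columns are pooled over replicates and carry no replicate numbers. The 3 results of each of the 8 comparisons (the members' median and the numbers at least 1.2-fold lower and higher) stayed within 0.1 of the median or 1.5 times the count with a pseudocount of 0.1 and with a minimum of 5 FPKM. Without the 5 LHCB1 genes, whose proteins are at least 95% identical, the median of IDD4-DD against IDD4-AA went from 0.026 to -0.014. Other changes came from scaling between groups, and no value at hand shows which scaling is right.

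For the untreated *idd4*-labelled group against WT, the median of -0.29 became 0.21 with 0 members lower and 13 higher under the nuclear sum, and 0.029 with 2 lower and 1 higher under the nuclear sum without the 10 highest genes. The 29 lower members became 15 under the median of ratios and 16 under the 75th percentile. For flg22 in WT the median of 0.23 became 0.34 (3 lower) under the median of ratios, 0.41 (2 lower, 35 higher) under the nuclear sum, 0.055 (11 lower, 14 higher) without the 10 highest genes and 0.11 under the 75th percentile. For flg22 in the *idd4*-labelled groups the median of 0.21 became -0.18 (20 lower, 3 higher) under the nuclear sum, -0.28 (25 lower, 2 higher) without the 10 highest genes and -0.032 (12 lower, 5 higher) under the 75th percentile. Under the nuclear sum the median became 0.10 in *IDD4ox* (3 lower, 12 higher), -0.29 in IDD4-DD (26 lower, 2 higher) and -0.21 for IDD4-DD against IDD4-AA (20 lower, 3 higher). In IDD4-AA 2 members were higher without the 10 highest genes. The comparison of the *idd4*-labelled group with WT after flg22 kept its 3 results under all alternatives run.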

Other observations

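Genes of carbon fixation were mostly lower in the *idd4*-labelled groups and after flg22. Of 19 genes of the Calvin cycle, 18 could be compared without treatment and all 18 were lower in the untreated *idd4*-labelled group as deposited, with a median of -0.36, where 60.8% of all genes were, while under scaling to the nuclear sum 2 of the 18 were lower. RPE, the ribulose phosphate epimerase, stood at 52.5 and 28.1 FPKM. After flg22 18 of 19 were lower than in WT, with a median of -0.30, where 39.6% of all genes were. In WT 17 of the 19 were lower after flg22, with a median of -0.32, where 60.9% of all genes were. RBCS1A, listed at 0 without treatment, was 1 of the 2 counted as higher. The LHCB1 and LHCB2 genes had a median of 0.62 there, but the list of 31 other thylakoid genes had one of -0.22. RBCS1B, a small subunit gene of Rubisco, stood at 3999 FPKM in untreated WT and 1871 after flg22. In *IDD4ox* all 19 were lower than WT as deposited, with a median of -0.28, where 38.1% of all genes were, and 16 of 19 under scaling to the nuclear sum. RBCS1A, another small subunit gene, is listed at 0 in untreated seedlings of both kinds, which may be a failed estimate, and no fold is given for it.

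Of 15 regulators of these genes 13 were lower after flg22 in WT as deposited (15 under the nuclear sum without the 10 highest genes), where 60.9% of all genes were, and PIF4 and PIF5, factors of light signalling, were the 2 with a higher value (0.08 and 0.16). Among those with the largest changes, GLK2 went from 187 to 42.4 FPKM, CGA1 from 33.3 to 3.31 FPKM, the plastid sigma factor SIG5 from 75.8 to 17.7 FPKM and CCA1 from 166.4 to 58.9 FPKM, and the list's median was -1.39 in WT and -1.08 in the *idd4*-labelled groups. In the expressor experiment GLK2 stood at 22.6 FPKM in WT, 40.3 in *IDD4ox*, 27.5 in IDD4-AA and 41.7 in IDD4-DD. GLK1 stood at 55.8, 58.1, 60.3 and 54.1 FPKM in that order and did not follow GLK2. As deposited 12 of the 14 regulators compared were higher and 2 lower in *IDD4ox*, where 61.9% and 38.1% of all genes were. In IDD4-DD 10 of 14 were higher and 4 lower, where 54.7% and 45.3% were. Of the genes of chlorophyll synthesis 16 of 18 were lower in the untreated *idd4*-labelled group as deposited, where 60.8% of all genes were, and 0 of 18 under the nuclear sum. After flg22 in WT 14 of 19 were lower, where 60.9% of all genes were. In *IDD4ox* 8 of 18 were lower, where 38.1% of all genes were, a number between 1 and 11 under the other scalings. None of these differences has a replicate check.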
